A study of Mus musculus with 4 samples.

Results

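The nuclear genes of the respiratory chain and the ATP synthase were followed in mouse CD4+ T cells, comparing cells given TGFb1 plus progesterone with cells given TGFb1 alone. Members were all genes whose symbol in the array's annotation starts with Nduf (complex I), Sdha to Sdhd (complex II), Uqcr (complex III), Cox4i or Cox5 to Cox8 (complex IV) or Atp5 (complex V). These prefixes took 185 probe sets for 94 genes, of 18194 genes with a probe set of their own on the array. Each gene was read from its probe set with the highest mean over the 4 arrays, and no measured difference entered the choice. Of the 94, 42 tested genes belonged to complex I, 8 to complex II, 8 to complex III, 13 to complex IV and 17 to complex V, 88 in all. The other 6 lay under the level filter, which kept probe sets whose mean was above the median of all. The prefixes also took 12 assembly factors (Ndufaf and Sdhaf genes), which build complexes but are not part of them, and all of these were tested.

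Both groups of cells were naive CD4+ cells from spleen and from peripheral and mesenteric lymph nodes, kept for 7 days in medium with 10% serum and 2.5 ug/ml of concanavalin A, a T cell mitogen. Human TGFb1, a cytokine that restrains T cells, was in both groups at 1 ng/ml, and 2 arrays came from cells with TGFb1 alone. The other 2 arrays came from cells that also received progesterone, a steroid hormone, at 2000 ng/ml. There was no group without TGFb1 and none with progesterone alone, the animals' strain and age are not given in the sources used here, and nothing in the labels ties the replicates to separate cultures or mice. The p-values below therefore measure only the spread between these arrays, which may be technical.

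The respiratory chain sits in the inner mitochondrial membrane. Complexes I and II pass electrons from NADH and succinate to coenzyme Q, complex III passes them on to cytochrome c, and complex IV gives them to oxygen. Complexes I, III and IV pump protons as they work, and the ATP synthase, complex V, uses the returning protons to make ATP. Most subunits are encoded in the nucleus and a few in mitochondrial DNA, so both genomes must supply matching parts. Resting T cells live mostly on this chain, and activated T cells enlarge their mitochondria and add fermentation of glucose to it.

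Several properties of the whole arrays bear on what follows. With TGFb1 alone the arrays had trimmed mean signals of 154.5 and 145.4, and with progesterone 137.8 and 107.7. Quantile normalisation was therefore used, which gives every array the same distribution of values. The 3' to 5' signal ratio lay between 1.23 and 1.32 for the actin control and between 0.690 and 0.748 for the Gapdh control, with no array apart. Transcripts of the sex chromosomes differed between the groups, with Xist signals of 9.52 and 9.70 against 1390 and 825 and Y-linked Eif2s3y signals of 689 and 727 against 4.25 and 0.49, TGFb1 alone first. The Y-linked genes Kdm5d (261 and 240 against 0.20 and 4.04) and Uty (152 and 124 against 13.2 and 6.5) were separated the same way. As background, Xist RNA marks female cells and Y-linked transcripts mark male cells. The labels give no sex, and these transcripts differed along with the treatment, so in every comparison below progesterone and a difference in the animals' sex cannot be told apart. Of the T cell markers, 0 of 8 passed the test, with 4 below 0 and 4 above it. Cd4 signals were 2356 and 2475 with TGFb1 alone against 1620 and 1220 with progesterone (-0.34 ± 0.098, adjusted p = 0.0843). For Cd4, Cd2, Cd5 and Cd6 both progesterone arrays lay below both TGFb1 arrays after normalisation, as for 26% of all genes tested. For Cd3d, Cd3g and Cd3e both lay above both TGFb1 arrays, as for 29.8% of all genes tested. Cd3e was at 3398 and 3201 against 3053 and 2214 as deposited (0.11 ± 0.079 after normalisation). Cd28 was also above 0, and its groups overlapped. Among markers of other cells, 1 of 7 tested myeloid genes rose, Lyz2 (log2 difference 2.69), beside 2.99% of all genes tested. Of the erythroid and platelet list, 3 of 3 tested genes rose, Pf4 (3.12), Itga2b and Ppbp, all platelet genes. The erythroid genes Alas2, Klf1 and Hba-a1 lay under the level filter. Ppbp, at 12.6 and 6.79 against 56.1 and 39.7, passed that filter (signal 23.8) only through its progesterone arrays, which favoured a rise. The summed myeloid signal was 278 to 530 in the TGFb1 arrays and 952 to 1051 in the progesterone arrays. In this sum Lyz2 alone was at 189 and 53.5 against 676 and 588. Cd68, Fcgr3 and Tyrobp lay above without passing, the groups of Csf1r and Fcer1g overlapped, and Itgam went the other way (-0.81 ± 0.39). The sum of the erythroid and platelet list was 185 to 225 in the TGFb1 arrays and 838 to 876 in the progesterone arrays. Mast cell and basophil genes had 2 of 5 up, with summed signals of 1760 and 1088 with TGFb1 alone against 1262 and 1237. The mast cell gene Cpa3 was at -0.33 ± 0.20 and did not pass. B cell genes had 1 of 3 down, Ighm, and CD8 T and NK cell genes 1 of 4 down, Klrd1, beside 5.17% of all genes. The other tested B cell genes, Cd79a (0.71 ± 0.33) and Cd79b (0.16 ± 0.25), lay above 0 without passing, so the B cell list had no common direction. No marker was at exactly 0, and the part of these other cells in the results below was not tested. In such bulk samples, fewer cells of a type and less RNA per cell cannot be told apart.

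With progesterone, 2 of 88 respiratory chain and ATP synthase genes passed the test, both lower. These were Cox6b2, a complex IV subunit isoform best known from testis, and Uqcrfs1, the Rieske iron-sulphur protein of complex III. No member rose. Over all 10501 genes tested, 5.17% were called lower, 2.99% higher and 8.16% in either direction, so the members' 2.27% lay below the background. The test was limma's moderated test with p-values adjusted by Benjamini-Hochberg over all genes. Differences are given as progesterone minus TGFb1 alone in log2(signal + 16) units after quantile normalisation, with the standard error (SE) of the fit and n = 2 per group.

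The members' differences were evenly split, with 44 below 0 and 44 above it, and their median was 0.0035, beside 0.022 for all genes. Their quartiles were -0.097 and 0.12, a narrower span than the -0.19 and 0.21 of all genes. An unadjusted p under 0.05 was found for 16 members, or 18.2%, against 24% of all genes. Their median SE was 0.10, against 0.16 for all genes. The members were also brighter, with a median signal of 1470 against 240 for all genes on TGFb1 replicate 1. The fit lets the SE depend on level, and the members were not compared with genes of similar level. Their narrower spread and intervals are therefore not read as particular to respiratory genes. The 95% interval of the difference lay wholly within 1.5-fold either way for 76 of 88 members (86.4%; 48.9% of all genes), and within 2-fold for 86. The 2 members whose interval reached past 2-fold were Cox6b2 and the assembly factor gene Ndufaf6.

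**Figure D1:**
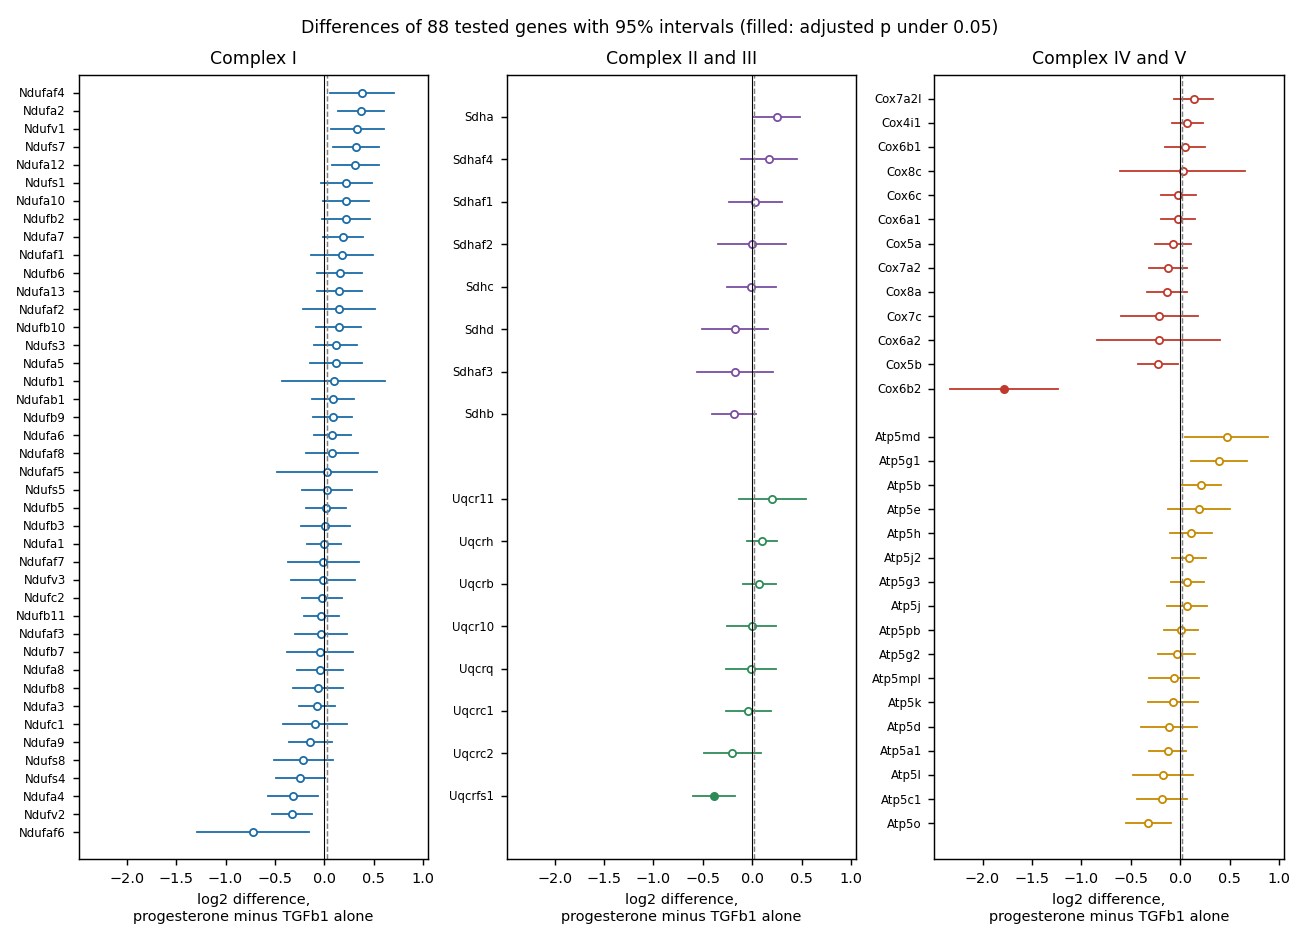
Log2 difference (progesterone minus TGFb1 alone) of each tested member by complex, with its 95% interval from the limma fit, the dashed line at the median of all genes and filled points for the members that passed. Most of the 88 intervals cross 0, and Cox6b2 at -1.78 and Uqcrfs1 at -0.38 are the filled points.

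Without a variance model, the groups can be compared by overlap. After normalisation both progesterone arrays lay below both TGFb1 arrays for 18 members and above them for 32. Over all genes tested 26% were wholly below and 29.8% wholly above. Complex I held 20 of the 32 members above and 7 of the 18 below, while complex IV held 2 above and 5 below.

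Complex I is the entry point for electrons from NADH. None of its 42 tested genes passed, with 17 below and 25 above 0 and a median difference of 0.050. Ndufa1, an accessory subunit needed to assemble the membrane arm, was at 3276 and 2952 with TGFb1 alone against 2578 and 2023 with progesterone as deposited, and its difference after normalisation was -0.0047 ± 0.074 (SE). It lies on the X chromosome, as does Ndufb11, which was at -0.030 ± 0.077. Ndufa6, another accessory subunit, differed by 0.081 ± 0.079. For these 3 genes the 95% interval included 0.

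The core of complex I, which binds NADH and carries the chain of iron-sulphur clusters, held the most negative of its subunits, Ndufv2. Ndufv1 carries the flavin that takes electrons from NADH, and Ndufv2 is its iron-sulphur partner in the same tip of the complex. Ndufv2 signals were 1980 and 1754 with TGFb1 alone against 1220 and 996 with progesterone, and its difference was -0.33 ± 0.088 (adjusted p = 0.0659). Ndufv1 signals were 634 and 684 with TGFb1 alone against 716 and 586 with progesterone, and its difference was 0.33 ± 0.11 (adjusted p = 0.13). After normalisation neither gene's groups overlapped, in opposite directions, and neither passed. The values of the further core subunits Ndufs7 (0.32 ± 0.099), Ndufs1 (0.22 ± 0.11), Ndufs3 (0.11 ± 0.094) and Ndufs8 (-0.21 ± 0.13) were likewise on both sides of 0. Not one of these 6 core genes passed.

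Among accessory subunits, Ndufa2 came nearest to the threshold on the higher side. Its signals were 2439 and 1880 with TGFb1 alone against 2270 and 1845 with progesterone, and it differed by 0.37 ± 0.10 (adjusted p = 0.069). As deposited the groups overlapped, and after normalisation they did not. Ndufa12 was at 0.31 ± 0.10. Ndufs4, a subunit whose loss is known to impair assembly of the NADH end, was at -0.24 ± 0.11 on the probe set used for the gene and at -0.38 and -0.44 on the other 2, with no adjusted p under 0.2. Ndufa4, first assigned to complex I and later found in complex IV, was at -0.31 ± 0.11 (adjusted p = 0.132). Its paralog gene Ndufa4l2, which responds to low oxygen, lay under the filter with signals of 22.5, 3.45, 8.09 and 3.13.

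Assembly factors had a median of 0.027, and none of the 12 passed. Ndufaf4 was the most positive complex I gene, at 0.38 ± 0.14, with signals of 162 and 160 with TGFb1 alone against 207 and 160 with progesterone (adjusted p = 0.151). Ndufaf6 was the most negative, at -0.72 ± 0.24, with signals of 63.7 and 72.9 against 48.8 and 25.4 (adjusted p = 0.123). The 95% interval of Ndufaf6 ran from -1.29 to -0.16.

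Complex II, succinate dehydrogenase, also works in the TCA cycle and is the only member complex with no mitochondrially encoded part. None of its 4 subunits passed. Sdha, the flavoprotein that oxidises succinate, was at 1324 and 1375 with TGFb1 alone against 1429 and 1012 with progesterone, a difference of 0.25 ± 0.10 (adjusted p = 0.197). Sdhb, its iron-sulphur partner, was at 1608 and 1368 against 1076 and 904, a difference of -0.18 ± 0.096 (adjusted p = 0.291). The membrane anchors were Sdhc, at -0.0097 ± 0.11, and Sdhd, at -0.17 ± 0.14. The probe sets of Sdha and of Sdhd differed in sign, as set out below. The 4 assembly factor genes lay between -0.18 (Sdhaf3) and 0.17 (Sdhaf4). All 8 genes of complex II had an interval within 1.5-fold of no change.

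Complex III passes electrons from coenzyme Q to cytochrome c. Uqcrfs1, whose iron-sulphur cluster takes the electron from the quinol, fell. Its signals were 2052 and 1886 with TGFb1 alone against 1338 and 937 with progesterone, so both progesterone arrays were lower with no overlap, before and after normalisation. The difference was -0.38 ± 0.091 (adjusted p = 0.0438), a 1.31-fold fall, with a 95% interval from -0.60 to -0.17. Over the alternatives the difference ran from -0.93 to -0.32, with -0.80 for values as deposited and -0.93 with arrays centred on the median. This call was close to the threshold. Without the level filter, without the intensity trend and in both settings of the upper 25% by level, Uqcrfs1 did not pass. The call also depended on single arrays. It was lost without TGFb1 replicate 2 (-0.37), without progesterone replicate 1 (-0.45) and without progesterone replicate 2 (-0.32), and over the 17 alternatives, 10 of which kept the call, the adjusted p ran from 0.0011 to 0.386. The gene ranked 1313th most negative of 10501.

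None of the other 7 genes of complex III passed, and their differences from Uqcrfs1 were not tested. The core subunit genes Uqcrc1 and Uqcrc2, needed for assembly, were at -0.039 ± 0.099 and -0.20 ± 0.12. Uqcrh, the hinge protein that binds near cytochrome c, and Uqcrb, a quinone site subunit, had differences above 0. Uqcrh was at 6712 and 5972 against 5990 and 4604, a difference of 0.10 ± 0.065. Uqcrb was at 4521 and 4360 against 4014 and 3034, a difference of 0.073 ± 0.072. Uqcr11 was the most positive, at 0.20 ± 0.15, and Uqcr10 and Uqcrq were at -0.0072 and -0.0097. The median of the 8 genes was -0.0084.

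Complex IV, cytochrome c oxidase, is the complex with tissue isoforms of several subunits, and Cox6b2 is one of them. COX6B proteins link the partners of the dimeric enzyme on the face that meets cytochrome c. Cox6b2 signals were 193 and 181 with TGFb1 alone against 58.1 and 27.0 with progesterone. The 2 TGFb1 arrays were close to each other and both progesterone arrays lay far below them, with a wider gap between themselves. Cox6b2 fell by 1.78 ± 0.23 on the log2 scale (adjusted p = 0.0047), a 3.44-fold fall on the log2(signal + 16) scale with a 95% interval from -2.33 to -1.24. It ranked 127th most negative of the 10501 genes. It passed in all 15 alternatives in which it was tested, with adjusted p from 5.3e-11 to 0.0266 and differences from -2.14 to -1.20. The value of 5.3e-11 came with values as deposited. There the fit took each gene's variance wholly from the trend over all genes, so that value is not read as stronger evidence. Cox6b2 is read by a single probe set.

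**Figure D2:**
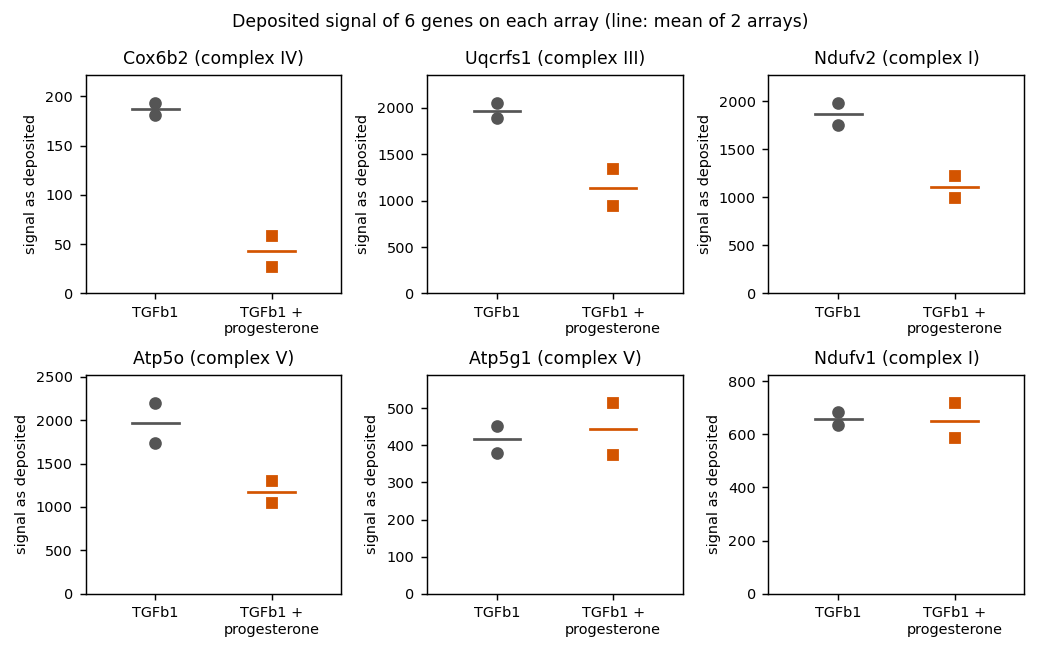
Signal as deposited (vertical axis, from 0) of 6 members on each of the 4 arrays, with a point per array and a line at each group's mean of 2 arrays. Cox6b2, at 181 and 193 with TGFb1 alone and 27.0 and 58.1 with progesterone, has the widest separation, while the groups of Atp5g1 and Ndufv1 overlap before normalisation.

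Cox6b1, the form made in most tissues, was at 4972 and 3985 with TGFb1 alone against 4028 and 2918 with progesterone, and its difference was 0.049 ± 0.087 (adjusted p = 0.779; 95% interval -0.15 to 0.25). The intervals of the isoform genes do not overlap, and the difference between the genes was not itself tested. The 250 bases before the RefSeq start site of each gene, and of Uqcrfs1, are shown 5′ to 3′ on the gene's strand, since these are the 2 members that passed and the isoform that did not. Capitals mark CCAAT on either strand (the CCAAT box) and CCGGAAG on either strand (the core of ETS factor sites, such as those of the GABP alpha chain). Coordinates are those of GRCm38.p6, on the minus strand in all 3 cases, as chr7:4753095-4753344 for Cox6b2, chr7:30626115-30626364 for Cox6b1 and chr13:30545317-30545566 for Uqcrfs1.
Cox6b2: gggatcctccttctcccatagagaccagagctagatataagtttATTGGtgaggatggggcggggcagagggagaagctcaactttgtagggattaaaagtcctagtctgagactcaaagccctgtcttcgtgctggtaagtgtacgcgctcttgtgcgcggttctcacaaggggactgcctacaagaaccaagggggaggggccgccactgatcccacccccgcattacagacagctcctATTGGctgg
Cox6b1: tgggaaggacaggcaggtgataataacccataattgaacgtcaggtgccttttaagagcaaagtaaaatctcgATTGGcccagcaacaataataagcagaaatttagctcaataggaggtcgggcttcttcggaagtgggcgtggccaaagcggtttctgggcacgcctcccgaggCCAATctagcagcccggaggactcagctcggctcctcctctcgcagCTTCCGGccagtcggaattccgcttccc
Uqcrfs1: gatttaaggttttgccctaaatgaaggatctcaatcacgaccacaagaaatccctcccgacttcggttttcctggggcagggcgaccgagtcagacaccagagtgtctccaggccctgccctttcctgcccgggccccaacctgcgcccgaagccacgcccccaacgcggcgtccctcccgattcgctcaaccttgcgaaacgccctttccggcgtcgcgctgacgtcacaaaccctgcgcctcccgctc
The Cox6b2 window held 8 CpG pairs and CCAAT at 2 places. The Cox6b1 window held 14 CpG pairs, CCAAT at 2 places and CCGGAAG at 1. The Uqcrfs1 window held 23 CpG pairs and neither motif. A match is a description of these letters and not a binding site.

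None of the other isoform genes of complex IV passed. Cox4i1, the general form of subunit IV, was at 5223 and 4602 against 4414 and 3385, a difference of 0.073 ± 0.067. Cox6a1 was at 5445 and 4605 against 4101 and 3359, a difference of -0.021 ± 0.074. Cox7a2 (-0.12 ± 0.081) and Cox8a (-0.13 ± 0.089) did not pass, and Cox7a2l, which helps to join complexes III and IV, was the most positive of the complex, at 0.13 ± 0.085.

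Of the forms known from muscle, lung or testis, 4 lay under the level filter. The heart and muscle forms Cox7a1 and Cox8b lay under the filter with signals of 4.34 to 15.8 and 1.02 to 4.44, and Cox6a2, also of muscle, was at 27.8 and 32.0 against 37.0 and 18.6 (-0.22 ± 0.27). Striated muscle markers had 1 of 6 genes above the filter. Cox4i2, a form of lung and of low oxygen, lay under the filter, at 7.59 and 7.06 with TGFb1 alone against 18.6 and 17.5 with progesterone, and it was not tested. The testis forms Cox7b2 and Cox8c were at 4.04 to 8.07, under the filter, and at 59.4 and 111 against 74.9 and 79.3 (0.024 ± 0.27). Detection calls were not used here.

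The remaining complex IV subunits were Cox5a (-0.073 ± 0.080), Cox5b (-0.22 ± 0.086), Cox6c (-0.019 ± 0.076) and Cox7c (-0.21 ± 0.17). Cox5b, a zinc-binding subunit, was at 3212 and 2557 against 2044 and 1606, with no overlap (adjusted p = 0.17). The complex's median, -0.073, was the lowest of the 5, and 9 of its 13 tested genes were below 0.

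Complex V, the ATP synthase, has a catalytic head (F1), a rotor of c subunits in the membrane and a peripheral stalk that holds the head still. None of its 17 genes passed, and their median was 0.0078. In the head, the catalytic beta subunit gene Atp5b was at 4090 and 4136 against 3946 and 3241, a difference of 0.21 ± 0.083 (adjusted p = 0.171). The alpha subunit gene Atp5a1 was at -0.13 ± 0.080, and the central shaft genes Atp5c1, Atp5d and Atp5e were at -0.18 ± 0.11, -0.11 ± 0.12 and 0.19 ± 0.14. These head genes lay on both sides of 0, between -0.18 and 0.21.

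Atp5g1, Atp5g2 and Atp5g3 encode the same mature c subunit with different targeting peptides. Atp5g1 was at 453 and 380 with TGFb1 alone against 513 and 373 with progesterone, which overlap as deposited, and its normalised difference was 0.39 ± 0.12 (adjusted p = 0.0979). Atp5g2 was at 3311 and 2722 against 2497 and 1829, a difference of -0.036 ± 0.081. Atp5g3 was at 4603 and 4158 against 3792 and 3099, a difference of 0.073 ± 0.071. The interval of Atp5g1, 0.11 to 0.67, lay apart from 0 without passing the adjustment, and those of Atp5g2 and Atp5g3 included it.

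At the edges of complex V stood a stalk gene and a small membrane subunit. Atp5o, the stalk protein that grips the head (OSCP), was the most negative, at 2195 and 1743 against 1301 and 1042, a difference of -0.32 ± 0.098 (adjusted p = 0.0931). Atp5md, a small subunit linked to dimer formation, was the most positive, at 781 and 684 against 732 and 831, a difference of 0.47 ± 0.18 (adjusted p = 0.165). Without progesterone replicate 2 the difference was 0.18. The stalk genes Atp5pb (0.0078) and Atp5h (0.11) were close to the median of all genes.

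**Figure D3:**
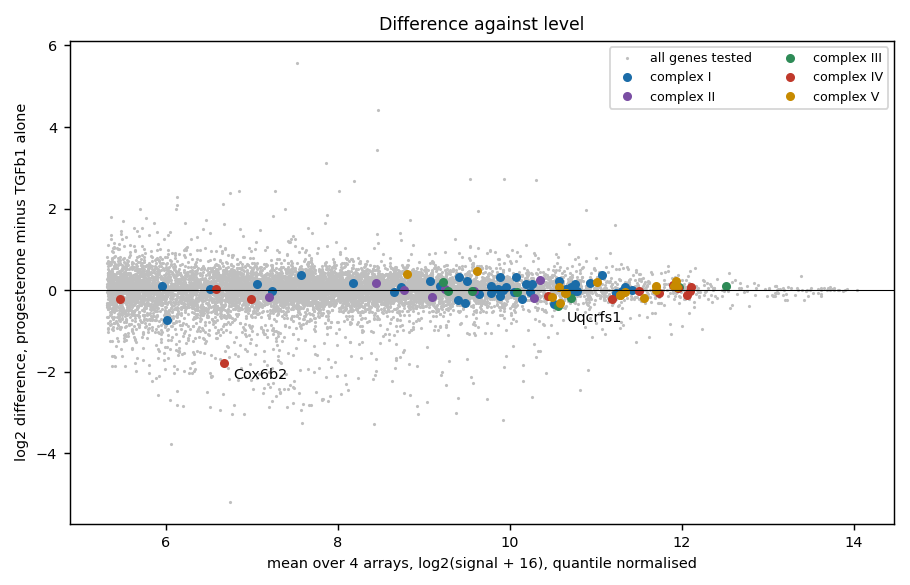
Difference (vertical axis, log2) against mean level (horizontal axis, log2(signal + 16), quantile normalised) for all 10501 genes in grey and the 88 members in the colour of their complex. Most members lie in a band around 0, with quartiles of -0.097 and 0.12, and Cox6b2 lies well below it at -1.78.

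Many members were measured by more than 1 probe set. Of the 94, 48 had over 1 kept probe set, and for 18 of these the probe sets differed in sign. The widest span was that of Ndufab1, the mitochondrial acyl carrier protein, from -0.20 to 0.55. Sdha ran from -0.37 to 0.26, where its 3 kept probe sets were at 0.25, 0.26 and -0.37. Atp5a1 ran from -0.54 to 0.079 and Atp5c1 from -0.18 to 0.30. The remaining genes with probe sets of both signs, Atp5g2, Atp5h, Atp5pb, Cox6b1, Cox6c, Ndufa3, Ndufa5, Ndufa7, Ndufaf8, Ndufb2, Ndufb9, Ndufc2, Sdhd and Uqcrq, spanned less than these.

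A test over all 22518 kept probe sets, of which 3.62% were called lower, called 3 of the members' 162, all lower. They were the single probe set of Cox6b2, 1 of the 3 probe sets of Ndufv2 and 1 of the 2 of Atp5d. The single probe set of Uqcrfs1, called in the test over genes, did not pass here (-0.38 ± 0.092, adjusted p = 0.053 over probe sets). That Ndufv2 probe set was at 902 and 963 against 420 and 405, a difference of -0.80 ± 0.14 (adjusted p = 0.017 over probe sets), while the gene's other probe sets were at -0.33 and -0.19. The Atp5d probe set, of the delta subunit, was at -0.39 ± 0.086 (adjusted p = 0.0404 over probe sets), while the one used for the gene was at -0.11. All 3 probe sets of Ndufv2 and both of Atp5d were below 0, by unequal amounts.

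**Figure D4:**
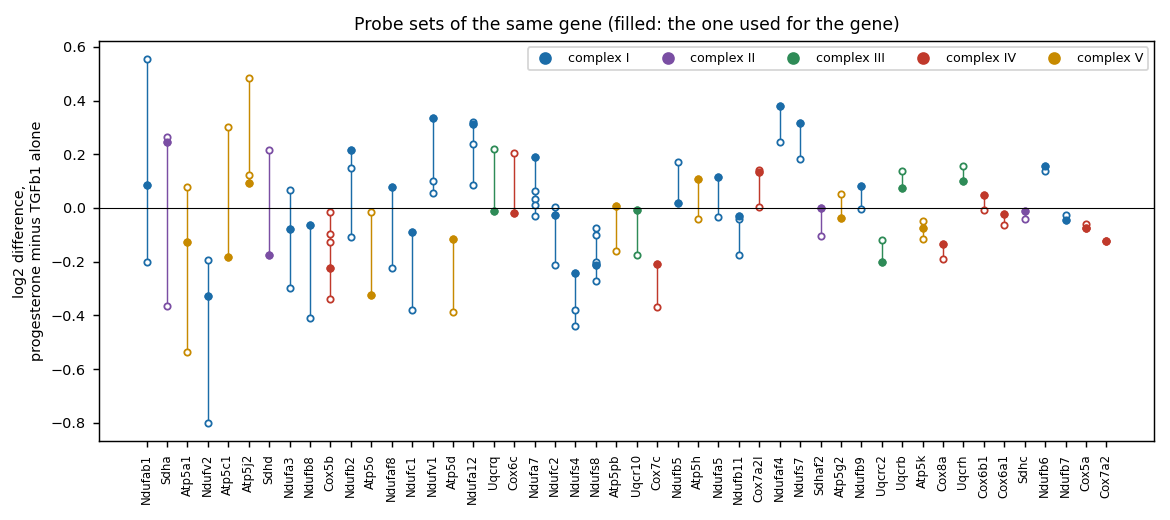
Log2 difference of every kept probe set of the 48 members with more than 1, ordered by span, with filled points for the probe set used for the gene and colours for the complex. Ndufab1 spans -0.20 to 0.55 and Ndufv2 reaches -0.80, while most genes span much less.

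The position of the members as a group depended on scaling. As deposited, 84 of 88 members had their lowest signal on progesterone replicate 2 and 67 their highest on TGFb1 replicate 1, against 7392 and 4344 of all 10501 genes. Both progesterone arrays lay below both TGFb1 arrays for 60 of 88 members, or 68.2%, where the same held for 45% of all genes. No member had both above, beside 10.4% of all genes. With values as deposited the median was -0.36 for members and -0.22 for all genes, and with each array scaled to a common trimmed mean it was -0.073 and 0.054. Relative to all genes the members were thus lower by 0.14 as deposited, by 0.13 with the trimmed mean and by 0.018 after quantile normalisation. Among genes of the upper 25% by level as deposited, a setting added after the data were seen, the medians were -0.37 for members and -0.29 for all genes, 0.084 apart. With all tested genes, complex I had the highest median of the 5 and complex IV the lowest in each of the 4 scalings, and in the upper 25% complex II (-0.32) stood above complex I (-0.36).

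With the trimmed mean 4 members were called lower (Atp5o, Cox6b2, Ndufv2 and Uqcrfs1; background 5.49%), and with values as deposited 2 were (Cox6b2 and Uqcrfs1; 7.57%). Centring the arrays on their medians gave 55 members lower, where 34.6% of all genes were. No member was called higher in these 3 scalings, where 3.31% of all genes were with the trimmed mean, 1.35% as deposited and 1.41% with centring.

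**Figure D5:**
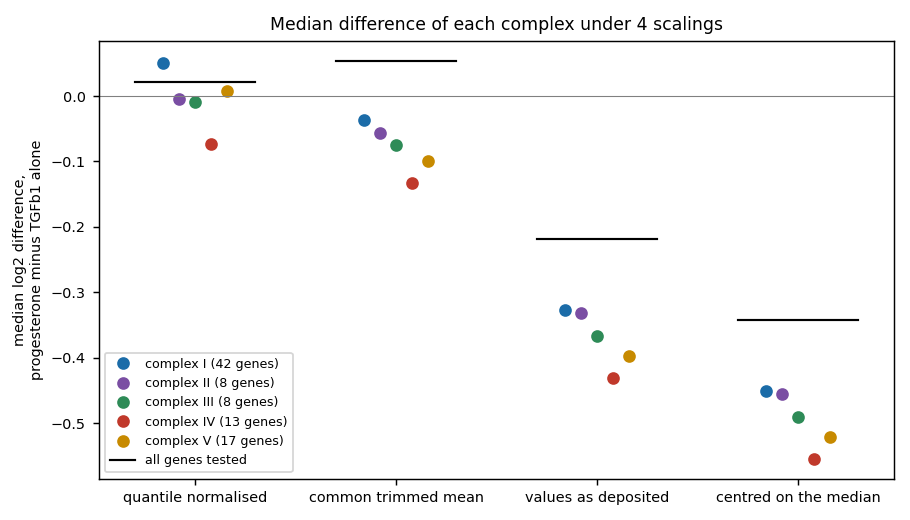
Median log2 difference (progesterone minus TGFb1 alone) of each complex (points) and of all genes tested (bars) under 4 scalings of the arrays. All 5 complexes lie within 0.1 of the bar after quantile normalisation and below it in the other scalings, complex IV lowest throughout.

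Other genes of respiration were taken from lists set by function, beside 8.16% of all genes tested called in either direction. At that share a short list can hold no call, so these counts are not read as a result. Of 19 complex IV assembly genes, 8 further complex I assembly genes, 12 coenzyme Q synthesis genes and 6 further complex III genes, none passed in either direction, with list medians of -0.0035, 0.15, 0.086 and 0.064. Cytochrome c itself, Cycs, was at -0.10 ± 0.077. Of 4 complex V helpers none passed. Atpif1, which blocks the synthase when it runs backwards, came nearest, at -0.41 ± 0.10 (adjusted p = 0.0526).

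Of 17 TCA cycle genes, which supply the chain with electrons, 1 fell, where 5.17% of all genes were lower. It was the NADP-linked isocitrate dehydrogenase gene Idh2 (-0.47 ± 0.11, adjusted p = 0.0479), and the list's median was 0.0018. Among 76 mitochondrial ribosomal protein genes, whose products make the mitochondrially encoded subunits, 1 rose, Mrpl28 (0.59 ± 0.14), and 1 fell, Mrpl9 (-0.45 ± 0.10). Over all genes tested 2.99% were higher and 5.17% lower. The median of the ribosomal list was -0.0069. None of the 18 protein import genes, 8 antioxidant genes, 10 inner membrane shape genes or 8 carriers and porins passed, beside 8.16% of all genes. Their medians were 0.087, 0.20, -0.037 and -0.096. No probe set was named as a mitochondrially encoded gene, so that side of the chain was not analysed here.

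Regulators of mitochondrial gene expression had 0 of 21 passing, beside 8.16% of all genes, with a median of 0.12. The nuclear respiratory factor gene Nrf1 was at -0.25 ± 0.14 and the mitochondrial transcription factor gene Tfam at -0.092 ± 0.11. The GABP alpha chain gene Gabpa was at 0.22 ± 0.11. The coactivator genes Ppargc1b and Pprc1 were at 0.52 ± 0.16 (adjusted p = 0.0944) and 0.51 ± 0.15 (adjusted p = 0.0826), the most positive of the list.

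Promoter windows were looked at for letters that respiratory genes are known for. Windows of the 250 bases before a RefSeq start site were found for 78 of the 94 members, 83 windows in all. The NRF1 (nuclear respiratory factor) palindrome, searched on both strands, was in 13 of them (15.7%), against 8.5% of windows of tested genes and 3.74% of all 32851 windows. The ETS core CCGGAAG was in 19.3%, against 14.4% and 6.91%. CCAAT was in 41% of the members' windows, 35% of those of tested genes and 33.8% of all. AAGATGGC, a YY1 motif, was in 1 window, or 1.2%, against 2.09% and 1.56%. None of these motifs contains another. Member windows had a median of 15 CpG pairs, against 6 over all windows. No such median was taken over windows of tested genes, so this gap is not read as particular to respiratory genes. These shares describe the sequences and were not related to the differences measured.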

How the data were processed

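Expression was measured on 1-colour arrays of 45101 probe sets in 4 samples, 2 per group, grouped by the sample titles. The authors deposited signal intensity on a linear scale. The submitters' processing notes name MAS5, and its version and scaling are not given in the sources used here. The 64 control probe sets were left out. The arrays' trimmed means differed by up to 1.43-fold, so intensities were quantile normalised and taken as log2(signal + 16), which understates the change of dim genes. Of the 45037 other probe sets, 34945 had 1 gene in the platform annotation, 932 several and 9160 none. Symbols were updated by Entrez identifier in a RefSeq table of GRCm38.p6, which matched all 94 members. Each gene was represented by its brightest single-gene probe set, kept if its mean lay above the median of all, giving 10501 genes. No coordinates of the array's probes are given, since no build is stated for it. Signals of different probe sets depend on the probes, so levels served only the filter and the choice of probe sets and named genes, and are not read as differences in expression between genes.

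The fit was a limma model (version 3.58.1, R 4.3.3) with lmFit and a trended eBayes, no covariates Benjamini-Hochberg adjustment over all genes and a threshold of 0.05. With 4 arrays there are 2 residual degrees of freedom, 3 ways to split them in pairs, and no exact permutation p under 0.333. Their number limits the precision. The members and lists were chosen with earlier results of these data known. Named genes were the members that passed, the 2 with the highest mean signal and the most positive and negative of each complex, isoform sets, the Sdh subunits, members with probe sets of opposite sign and the passing genes of companion lists. Other genes in the text complete a complex or list and were chosen after their values were seen. On simulated arrays of 10501 genes with 200 changed, the test recovered 14.5% at a true change of 1.5-fold, 63.1% at 2-fold and 94.6% at 4-fold. The 200 were drawn from all genes, whereas the data had 857 called and the members a smaller median SE (0.10 against 0.16). These shares are therefore not the recovery to be had for the members. Alternatives were other scalings, pseudocounts (1 and 64), level filters, variance models, probe set rules, the replicate number as a block, and each array left out.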

Additional observations from a re-analysis of the deposited data

How the results depend on the processing

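Cox6b2 kept its call in all 15 alternatives that tested it and Uqcrfs1 in 10 of 17, both with the same sign throughout. Of 706 values of 42 named genes under 17 alternatives, 574 kept direction and side of the threshold. Another 26 kept direction and passed where the reported value had not, 7 (all Uqcrfs1) no longer passed and 99 changed sign. Some of those 99 also passed, as lower, with arrays centred on the median. They were Atp5g3, Atp5h, Atp5pb, Cox4i1, Cox6b1, Cox7a2l, Ndufa6, Ndufab1, Ndufb9, Uqcrb and Uqcrh. The cause of the changes was not tested, beyond the fewer arrays or other genes that an alternative tests by construction. Values below are log2 differences and medians of them, by complex, or counts.

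With values as deposited, the values were -0.36 for the members' median, -0.22 for the median of all genes, -0.33 for complex I, -0.33 for complex II, -0.37 for complex III, -0.43 for complex IV and -0.40 for complex V. The sign turned with values as deposited for Atp5b (-0.20), Atp5g3 (-0.35), Atp5h (-0.30), Atp5pb (-0.40), Cox4i1 (-0.34), Cox6b1 (-0.38), Cox7a2l (-0.29), Cox8c (-0.069), Ndufa5 (-0.24) and Ndufa6 (-0.36). Opposite signs were found with values as deposited for Ndufa7 (-0.25), Ndufab1 (-0.31), Ndufaf8 (-0.24), Ndufb2 (-0.14), Ndufb9 (-0.37), Sdha (-0.16), Uqcr11 (-0.15), Uqcrb (-0.35) and Uqcrh (-0.27). With a common trimmed mean, the values were 4 members called lower, 0.054 for the median of all genes, -0.037 for complex I, -0.074 for complex III, -0.13 for complex IV and -0.099 for complex V. A change of sign was seen with a common trimmed mean for Atp5g3 (-0.053), Atp5h (-0.0057), Atp5pb (-0.099), Cox4i1 (-0.044), Cox6a2 (0.078), Cox6b1 (-0.077), Ndufa6 (-0.067), Ndufab1 (-0.015), Ndufb9 (-0.069) and Uqcrb (-0.048). With arrays centred on the median, the values were 3779 genes called over all genes, 55 members called lower, -0.48 for the members' median, -0.34 for the median of all genes, -0.45 for complex I, -0.46 for complex II, -0.49 for complex III, -0.55 for complex IV and -0.52 for complex V. Signs changed with arrays centred on the median for Atp5b (-0.32), Atp5g1 (-0.050), Atp5g3 (-0.47), Atp5h (-0.43), Atp5md (-0.032), Atp5pb (-0.52), Cox4i1 (-0.47), Cox6b1 (-0.50), Cox7a2l (-0.41) and Cox8c (-0.19). The sign turned with arrays centred on the median for Ndufa5 (-0.36), Ndufa6 (-0.49), Ndufa7 (-0.38), Ndufab1 (-0.43), Ndufaf8 (-0.36), Ndufb2 (-0.27), Ndufb9 (-0.49), Sdha (-0.29), Uqcr11 (-0.27) and Uqcrb (-0.47). Opposite signs were found with arrays centred on the median for Uqcrh (-0.39). Without the level filter, the values were 488 genes called over all genes and 1 member called lower. Among the upper 25% by level, the values were 0 members called lower and -0.021 for complex IV. Without the intensity trend, the values were 464 genes called over all genes and 1 member called lower. With probe sets averaged, the complex III median was 0.033. In that setting Ndufv2 was called lower beside Cox6b2 and Uqcrfs1, where 571 of all 10501 genes were lower. A change of sign was seen with probe sets averaged for Atp5c1 (0.060), Atp5g2 (0.0070), Atp5pb (-0.076), Cox6c (0.093), Ndufaf8 (-0.072), Sdhd (0.022) and Uqcrq (0.10). Without probe sets of suffix _x_at or _s_at, the complex III median was 0.033. Signs changed without probe sets of suffix _x_at or _s_at for Atp5c1 (0.30), Atp5pb (-0.16), Ndufa3 (0.067), Ndufab1 (-0.20), Ndufc2 (0.0039) and Uqcrq (0.22). With values as deposited and the upper 25% together, added after the data were seen, the values were 543 genes called over all genes, 0 members called lower, -0.37 for the members' median, -0.29 for the median of all genes, -0.36 for complex I, -0.32 for complex II, -0.37 for complex III, -0.47 for complex IV and -0.40 for complex V. The sign turned with values as deposited and the upper 25% together, added after the data were seen, for Atp5b (-0.20), Atp5g3 (-0.35), Atp5h (-0.30), Atp5pb (-0.40), Cox4i1 (-0.34), Cox6b1 (-0.38), Cox7a2l (-0.29), Ndufa5 (-0.24), Ndufa6 (-0.36) and Ndufa7 (-0.25). Opposite signs were found with values as deposited and the upper 25% together, added after the data were seen, for Ndufab1 (-0.31), Ndufaf8 (-0.24), Ndufb2 (-0.14), Ndufb9 (-0.37), Sdha (-0.16), Uqcr11 (-0.15), Uqcrb (-0.35) and Uqcrh (-0.27).

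Over fits that each leave out 1 array, genes called over all genes ran from 234 to 1155, members called lower ran from 1 to 5, members called higher ran from 0 to 2, the members' median ran from -0.033 to 0.050, the median of all genes ran from -0.0021 to 0.038, the median of complex I ran from 0.023 to 0.10, the median of complex II ran from -0.069 to -0.0010, the median of complex III ran from -0.032 to 0.039, the median of complex IV ran from -0.12 to -0.043 and the median of complex V ran from -0.020 to 0.072. The members called without TGFb1 replicate 2 were Atp5c1, Atp5o, Cox6b2, Ndufs8 and Uqcrc2 (lower) and Atp5b (higher). Without TGFb1 replicate 1 Atp5e and Ndufa2 were higher beside the reported calls, and without either progesterone array Cox6b2 alone was called. A group left with 1 array is assumed to vary like the other. With 1 array left out, these named genes had values of both signs, given as lowest to highest: Atp5g2 (-0.093 to 0.020), Atp5pb (-0.020 to 0.035), Cox6a1 (-0.065 to 0.023), Cox6a2 (-0.44 to 0.0050), Cox6b1 (-0.048 to 0.15), Cox6c (-0.061 to 0.023), Cox8c (-0.34 to 0.39), Ndufa1 (-0.025 to 0.015), Ndufc2 (-0.087 to 0.039), Sdhc (-0.079 to 0.059), Sdhd (-0.36 to 0.013) and Uqcrq (-0.069 to 0.049).

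Replicate numbers are shared by the groups, but the samples share only a number. Deviations of same-numbered arrays from their group means correlated at 0.205 over genes, and crossed numbers at -0.205. With the replicate number as a block, 1936 genes were called (911 higher, 1025 lower), of them 5 members lower (Atp5o, Cox6b2, Ndufa4, Ndufv2, Uqcrfs1) and 7 higher (Atp5b, Atp5g1, Atp5md, Ndufa12, Ndufa2, Ndufs7, Ndufv1).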

Other observations

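Probe sets that the annotation gives to several genes fall outside the rule, and 10 of them name a gene of these families. The complex I subunit Ndufb4 and its copies Ndufb4b and Ndufb4c share 2 probe sets. One was at 1168 and 1165 with TGFb1 alone against 1167 and 876 with progesterone, a difference of 0.20 ± 0.096, and the other differed by 0.16 ± 0.10. The only probe set of Ndufb4 alone lay under the level filter, at 6.71 to 19.1. Ndufa11, shared with Ndufa11b, was at 1046 and 903 against 791 and 647, a difference of -0.061 ± 0.10, and Ndufs6, shared with Ndufs6b, at 938 and 819 against 739 and 633, a difference of 0.018 ± 0.11. Like most members, these shared probe sets had small differences, and none had an adjusted p under 0.05 over probe sets.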
